A study of Mus musculus with 42 samples.

Results

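The genes Cyp2b9, Cyp2b10, Cyp2b13 and Nr1i3 were followed through liver RNA-sequencing of 42 mice. They are 4 of the 19756 gene names listed across 6 tables of normalized counts, 1 table for each comparison of the study. They were picked by name, with their large difference between obese and lean mice already known, so their values in the 2 diet comparisons are a description. All mice were C57BL/6J males, 7 in each of 6 groups, and both lean and obese controls received vehicle (ethanol+PBS). WT lean and KO lean mice ate a diet with 10% of its energy from fat, and WT obese and KO obese mice ate one with 60%, in each case from 6 weeks of age for 15 weeks. WT obese+RvE1 and KO obese+RvE1 mice ate the diet with 60% fat and received 300 ng of RvE1 intraperitoneally on each of 4 days, with livers taken on day 5. RvE1 is a lipid mediator made from eicosapentaenoic acid, and ChemR23, encoded by Cmklr1, is a receptor for it. KO mice lacked ChemR23 after CRISPR/Cas9 editing in the whole animal, and WT mice were littermates. Whole livers were sequenced, 1 library per mouse, with 15976714 to 43805397 reads on the listed genes (median 24277649).

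Nr1i3 encodes the constitutive androstane receptor (CAR), a nuclear receptor of hepatocytes. CAR pairs with the retinoid X receptor and switches on genes for the breakdown and export of drugs, bile acids and steroids. Cyp2b10 encodes a cytochrome P450 enzyme and is the usual readout of CAR activity in mouse liver. Cyp2b9 and Cyp2b13 encode close relatives of that enzyme and are known as genes with higher expression in female than in male mouse liver.

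On GRCm38 (mm10), the 3 Cyp2b genes lie in one cluster of the plus strand of chromosome 7, with Cyp2b10 at chr7:25897620-25926624, Cyp2b13 at chr7:26061497-26096197 and Cyp2b9 at chr7:26173411-26210661. Nr1i3 lies at chr1:171213970-171220701, plus strand. The sequences just before the start sites are shown because Cyp2b9 and Cyp2b13 are almost identical there while Cyp2b10 is not. They are RefSeq promoter sequences on GRCm38, plus strand, 5′ to 3′. For Cyp2b9 (chr7:26173159-26173408) and Cyp2b13 (chr7:26061245-26061494) they are the 250 bases before the RefSeq start, and capitals mark the bases that differ between them. For Cyp2b10 (chr7:25897408-25897619) the stretch stops where the annotated gene begins, and nothing is in capitals.
Cyp2b9: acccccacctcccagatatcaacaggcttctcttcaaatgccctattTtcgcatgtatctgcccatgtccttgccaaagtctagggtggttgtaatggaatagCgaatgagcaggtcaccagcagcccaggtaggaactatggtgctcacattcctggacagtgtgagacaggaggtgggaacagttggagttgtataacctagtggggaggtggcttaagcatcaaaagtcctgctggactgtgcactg
Cyp2b13: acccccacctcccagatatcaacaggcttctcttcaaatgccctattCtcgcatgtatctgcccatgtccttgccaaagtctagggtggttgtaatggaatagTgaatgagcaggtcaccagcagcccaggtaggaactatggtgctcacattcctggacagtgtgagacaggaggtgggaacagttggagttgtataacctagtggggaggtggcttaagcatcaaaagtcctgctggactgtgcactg
Cyp2b10: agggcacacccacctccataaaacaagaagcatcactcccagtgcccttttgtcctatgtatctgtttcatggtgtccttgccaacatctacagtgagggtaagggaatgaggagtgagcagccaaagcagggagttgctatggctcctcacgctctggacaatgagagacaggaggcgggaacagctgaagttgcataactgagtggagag
Counted in bases before the start, with the Cyp2b9 base first, the 2 differences are T203C and C147T, an identity of 99.2%. Cyp2b9 and Cyp2b10 share 74.58% of aligned bases over the same 250 bases. The letters AGGTCA, the half-site of many nuclear receptors, were searched on both strands and stand 138 bases before the start of Cyp2b9 and of Cyp2b13. They are absent from this window of Cyp2b10 and Nr1i3, and 14% of all 32851 promoters hold them. TTCNNNGAA, the letters of a STAT element, matched none of the 4 windows and 7.02% of all promoters.

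The likeness of these genes bears on the counts. The longest protein-coding transcripts of Cyp2b9 and Cyp2b13 share 91.72% of aligned bases, those of Cyp2b9 and Cyp2b10 87.63%, and those of Cyp2b13 and Cyp2b10 88.19%. Of all 50-base windows in the exons, 11.17% for Cyp2b9, 8.702% for Cyp2b10 and 27.27% for Cyp2b13 occur letter for letter in another gene. Cyp2b9 shares such windows mainly with Cyp2b13 (10.84%), and Cyp2b13 shares most with the gene Gm45225 (13.8%). Exons of Nr1i3 overlap those of Tomm40l, on the opposite strand, over 3304 bases or 74.85% of its exonic length. The libraries were made with a stranded kit, but whether strand was used in the authors' counting is not given in the sources used here. Reads of Nr1i3 and Tomm40l may therefore not be told apart, and values of both are given.

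The labels were checked on Cmklr1 and on markers. In lean mice Cmklr1 had 40.8, 62.0 and 114 normalized counts (lowest, median and highest of 7) in WT and 9.72, 10.7 and 22.6 in KO, and the groups did not overlap (log2 fold change -2.23, SE 0.24, limma adjusted p = 0.000492), as held for 0.422% of all genes in that direction. In obese mice it had 33.3, 51.5 and 102 normalized counts in WT and 5.08, 14.2 and 23.2 in KO (log2 fold change -2.04, SE 0.31, limma adjusted p = 0.0339), again without overlap, as held for 0.0212% of all genes. With the number that opens each mouse name as a random block, 0 genes were called between obese genotypes, so Cmklr1 was not called there. All 10 hepatocyte markers were present, led by albumin (Alb). The lowest median r of a library with its group mates, over log2 values of all genes tested, was 0.957, in a KO obese+RvE1 mouse (23-2L).

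In WT mice, Cyp2b9 was near the detection limit on the lean diet and higher, by widely varying amounts, in every mouse on the high fat diet. WT lean mice had 0, 2.48 and 5.32 normalized counts (lowest, median and highest), from 20 reads in all 7 mice. WT obese mice had 48.7, 331 and 4836. No obese mouse came down to the lean range, and the ratio of medians was 133. Among obese mice the highest was 99.3 times the lowest, and below this mouse, WT obese replicate 7 (6R), the next had 450 normalized counts.

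Cyp2b10 was higher as well, by less. WT lean mice had 1.74, 4.87 and 8.77 normalized counts and WT obese mice 9.59, 45.7 and 280, so the groups did not overlap. The mouse that led Cyp2b10 was WT obese replicate 1 (mouse 22L), with 80.0 normalized counts of Cyp2b9, and not the one that led Cyp2b9. On the scale of log2(normalized count + 1) the differences were 6.28 for Cyp2b9 and 3.20 for Cyp2b10. On the reads, edgeR and DESeq2 gave 8.22 and 8.32 for Cyp2b9 and 3.90 and 3.96 for Cyp2b10.

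Nr1i3, the receptor gene, differed least. WT lean mice had 1021, 1978 and 2704 normalized counts and WT obese mice 1372, 3875 and 5758. The groups overlapped through 1 obese mouse, replicate 4 (mouse 27RL), while the other 6 lay above all lean mice. The log2 fold change was 0.94, and that of its overlapping neighbour Tomm40l was 0.96. Of the 3 genes analysed in WT mice, 2 did not overlap between diets, against 0.799% of all 14012 genes tested without overlap and higher in obese mice. The genes were picked for this difference, so nothing is read from that share. Cyp2b13 was not analysed in this comparison.

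KO mice showed the same order of these 3 genes. Cyp2b9 had 0, 2.38 and 11.7 normalized counts in KO lean mice and 28.2, 1469 and 4373 in KO obese mice, with no overlap and a log2 fold change of 7.64 (8.92 with edgeR and 8.96 with DESeq2). Here the obese mice spread over a range of 155 times, with no single mouse apart from the rest. Cyp2b10 had 0, 2.90 and 26.7 normalized counts in KO lean mice and 30.0, 113 and 323 in KO obese mice, again without overlap (log2 fold change 4.22).

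Cyp2b13 was at 0 in 6 of 7 KO lean mice, and the remaining one had 1 read. KO obese mice had 0, 35.6 and 224 normalized counts from 619 reads. After scaling by the libraries' size factors the ratio of these reads was 561, with an exact 95% interval of 100 to 22198 that covers counting error only, and 348 of the 619 reads came from mouse 10-2L. In 5 of 7 KO obese mice Cyp2b13 lay above every lean mouse, while mouse 23L had no read and mouse 31N had 1. These were also the 2 KO obese mice with the least Cyp2b9. A count of 0 in a library allows up to 3 reads.

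Nr1i3 had 2263, 2685 and 3178 normalized counts in KO lean mice and 3571, 3872 and 5007 in KO obese mice. All 7 obese mice lay above all lean mice, at a log2 fold change of 0.60, beside 0.48 for Tomm40l. Of the 4 genes, 3 did not overlap between diets, against 0.985% of all 14213 genes tested without overlap and higher in obese mice. In whole liver, fewer cells that express a gene and less RNA per cell cannot be told apart.

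**Figure D1:**
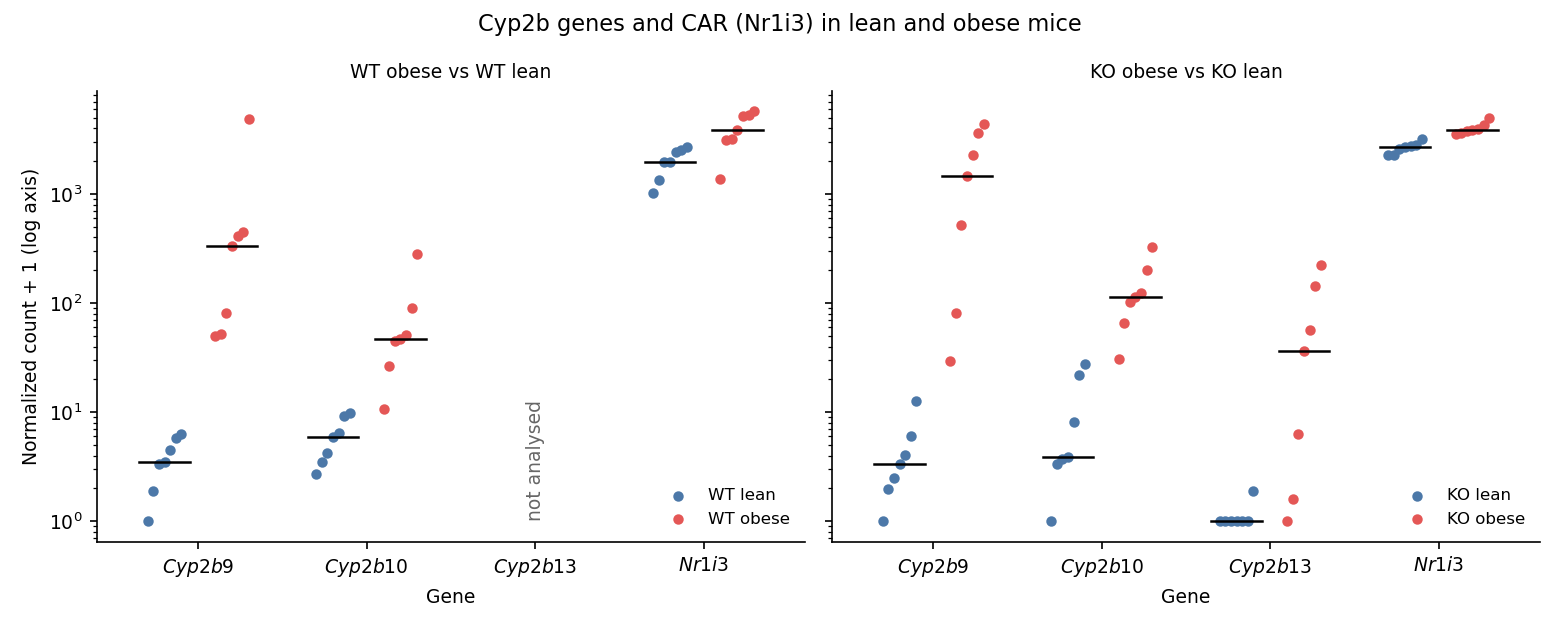
Normalized count + 1 on a log axis for each gene in WT mice (left) and KO mice (right), with 1 point per mouse, lean in blue, obese in red, and a black line at the group median. Lean and obese points of Cyp2b9 and Cyp2b10 do not meet in either genotype, and Cyp2b13, shown for KO mice alone, was at 0 in 6 of 7 lean mice.

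Per kilobase of exon, the order of the levels differed from the order of the differences. Lengths were the annotated exonic bases of all transcripts together, 4414 for Nr1i3 (8 transcripts) and 1876 for Cyp2b9 (1 transcript). Of the Nr1i3 length 74.85% overlaps Tomm40l, so its level per kilobase and its place in the order are uncertain. In KO obese mice the median level was 877 normalized counts per kilobase for Nr1i3 and 783 for Cyp2b9, against 53.7 for Cyp2b10 and 19.0 for Cyp2b13. In KO lean mice it was 608 for Nr1i3, 1.37 for Cyp2b10 and 1.27 for Cyp2b9. The spread within KO obese mice was 155 times for Cyp2b9, 10.8 times for Cyp2b10 and 1.40 times for Nr1i3. In WT obese mice the median was 878 for Nr1i3, 177 for Cyp2b9 and 21.6 for Cyp2b10, each from the comparison with lean mice.

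Some markers of other cells were also called between diets, most of them in KO mice alone. In WT mice 0 of 6 Kupffer cell, 0 of 6 sinusoidal endothelial, 0 of 5 stellate cell and 0 of 4 bile duct markers were called, beside 3.8% of all genes. Of the 4 adipocyte markers tested, the complement factor Cfd alone was called, higher in obese mice of both genotypes (log2 fold change 4.34 in WT, 3.01 in KO). Beside this, 2.26% of all genes were called higher in WT and 4.97% in KO mice. Log2 fold changes were positive for 4 of the 4 markers in WT and 2 of 4 in KO mice, with medians of 0.46 and -0.017. Genes are termed called at a limma adjusted p below 0.1 when they also differ more than 1.5 times. The summed level of the 4 adipocyte markers was 442, 665 and 784 normalized counts in WT lean and 868, 993 and 1492 in WT obese mice, with the lipase gene Lipe the most abundant. In KO lean mice it was 728, 933 and 1347, and in KO obese mice 646, 1133 and 2553, with Cfd the most abundant. Adipoq, Plin1, Lep and Retn, which define adipocytes, were not analysed in the diet comparisons. Kupffer cell markers (Clec4f, Vsig4, Cd5l, Timd4, Marco and Cd68) had 4 of 6 called lower in KO obese than in KO lean mice, beside 5.42% of all genes. Their summed level, led by Cd5l, was 6333, 7171 and 14316 in KO lean and 3601, 4266 and 4759 in KO obese mice. Of 6 sinusoidal endothelial markers Clec4g alone (-0.73), and of 5 stellate cell markers Des alone (-0.59), was called lower in KO obese mice, beside the same 5.42%. Positive log2 fold changes were seen for 2 of the 6 and 3 of the 5 markers, with medians of -0.20 and 0.028. When the number that mouse names begin with entered as a random block, the 4 Kupffer markers were still called. Of all genes 750 were called in KO mice with this block, and Cfd, Clec4g and Des were not. The part of these cells in the diet differences of the 4 genes was not tested.

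Other targets of CAR and of PXR, its sister receptor for foreign compounds, were followed as a list of 36 genes without the Cyp2b genes. In WT mice 6 of 34 tested were called, and all 6 were higher in obese mice, beside 2.26% of all genes called higher, 1.53% called lower and 3.8% called in either direction. The median log2 fold change was 0.23, against 0.0030 over all genes tested. With the same random block 4 targets were called in WT and 10 in KO mice, beside 242 and 750 of all genes. In KO mice 11 of 34 were called higher and 1 lower, beside 4.97% of all genes called higher, 5.42% called lower and 10.4% in either direction, with a median of 0.41 against -0.0021 over all genes. The export pump gene Abcc3 had a mean of 1322 ± 308 (SD, n = 7) normalized counts in WT lean and 3119 ± 1043 in WT obese mice, with a log2 fold change of 1.19 in WT and 1.77 in KO. Cyp2a5, an enzyme of coumarin and nicotine metabolism, had log2 fold changes of 1.77 and 2.20, and Cyp2c37 0.93 and 1.49. Cyp2c55 was the gene called lower in KO mice (-1.08). The classic PXR target Cyp3a11 was not called, at -0.12 in WT and -0.40 in KO.

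Of the partners and regulators of CAR, 2 of 28 were called in WT mice, beside 3.8% of all genes, and 5 of 28 in KO mice, beside 10.4%. In WT mice the count was 0 without WT lean replicate 1 (mouse 19R) and 0 with the random block, beside 242 of all genes. In KO mice it was 2 with the block, beside 750 of all genes. Ahr, a receptor for dioxin-like compounds, was called higher in WT mice (0.62), and Egfr, the receptor for epidermal growth factor, was called lower (-1.31, not called by edgeR). In KO mice 4 were called higher, among them Arnt (0.75), Ahr (0.69) and Foxo1 (0.62, not called by edgeR or DESeq2), and Cebpa was called lower (-0.81). The median was -0.11 in WT and 0.088 in KO. The partner Rxra had log2 fold changes of -0.14 and 0.016 and PXR itself (Nr1i2) 0.030 and 0.0033, and neither was called.

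In the gene cluster on chromosome 7, 3 of 10 tested neighbours were called higher in each genotype, beside 2.26% of all genes in WT and 4.97% in KO mice. With the random block 2 were called in WT and 3 in KO mice, beside 242 and 750 of all genes. The 3 neighbours were Cyp2a4 (1.95 in WT and 2.30 in KO), Cyp2a5 and Cyp2a22 (1.36 and 1.69). Cyp2a4 and Cyp2a5 are closely alike in sequence, so the share of reads between them is uncertain. The list's median was 0.34 in WT and 0.38 in KO. Cyp2b19 and Cyp2b23 were not analysed in the diet comparisons.

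Genes that differ between male and female liver were listed because Cyp2b9 and Cyp2b13 belong to the female class. Of the other female-predominant genes, 5 were called higher and 1 lower of 23 in WT mice, and 6 higher and 4 lower of 24 in KO mice. Among all genes 2.26% were called higher and 1.53% lower in WT mice, and 4.97% and 5.42% in KO mice. With the random block 4 female-predominant genes were called in WT and 6 in KO mice, beside 242 and 750 of all genes. Hao2, a peroxisomal oxidase, had a log2 fold change of 2.89 in WT and 3.69 in KO, from means of 0.443 and 0.987 normalized counts in lean mice, so that, like Cyp2b9, it passed the filter on low values through obese mice alone. Cd36, a fatty acid transporter, was called higher in both (1.59 and 1.46), and Slc22a26, a transporter gene, in KO (1.96). The leptin receptor Lepr was called lower in both (-3.96 and -3.01), and in KO mice also Cyp4a14 (-1.95) and Acot3 (-1.36). The medians were 0.19 and 0.32.

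Of 22 male-predominant genes, 5 were called lower and 1 higher in WT mice, and 9 lower and 1 higher in KO mice, with medians of -0.46 and -0.74, beside 1.53% and 5.42% of all genes called lower. With the random block 4 were called in each genotype, beside 242 of all genes in WT and 750 in KO mice. The fatty acid binding protein gene Fabp5 had a mean of 650 ± 294 normalized counts in WT lean and 44.4 ± 27.5 in WT obese mice (log2 fold change -3.92, and -3.15 in KO). In WT mice Elovl3 (-1.88) and Cyp4a12b (-1.88) were next. In KO mice Moxd1 (-3.60) and Hsd3b5 (-3.15) had the lowest values, and neither edgeR nor DESeq2 called them. Sult5a1 was the gene called higher (1.15 in WT, 0.73 in KO). In the growth hormone and STAT5 list, the feedback inhibitor Socs2 was the 1 gene of 15 called in WT, and it was lower (-1.67). In KO mice Stat5a (0.67) and the receptor gene Ghr (0.63, not called by edgeR or DESeq2) were called higher. Shares of 3.8% of all genes in WT and of 4.97% higher and 10.4% in either direction in KO stand beside these counts. With the random block 1 gene was called in each genotype, beside 242 of all genes in WT and 750 in KO mice. The medians were -0.12 in WT and 0.26 in KO.

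**Figure D2:**
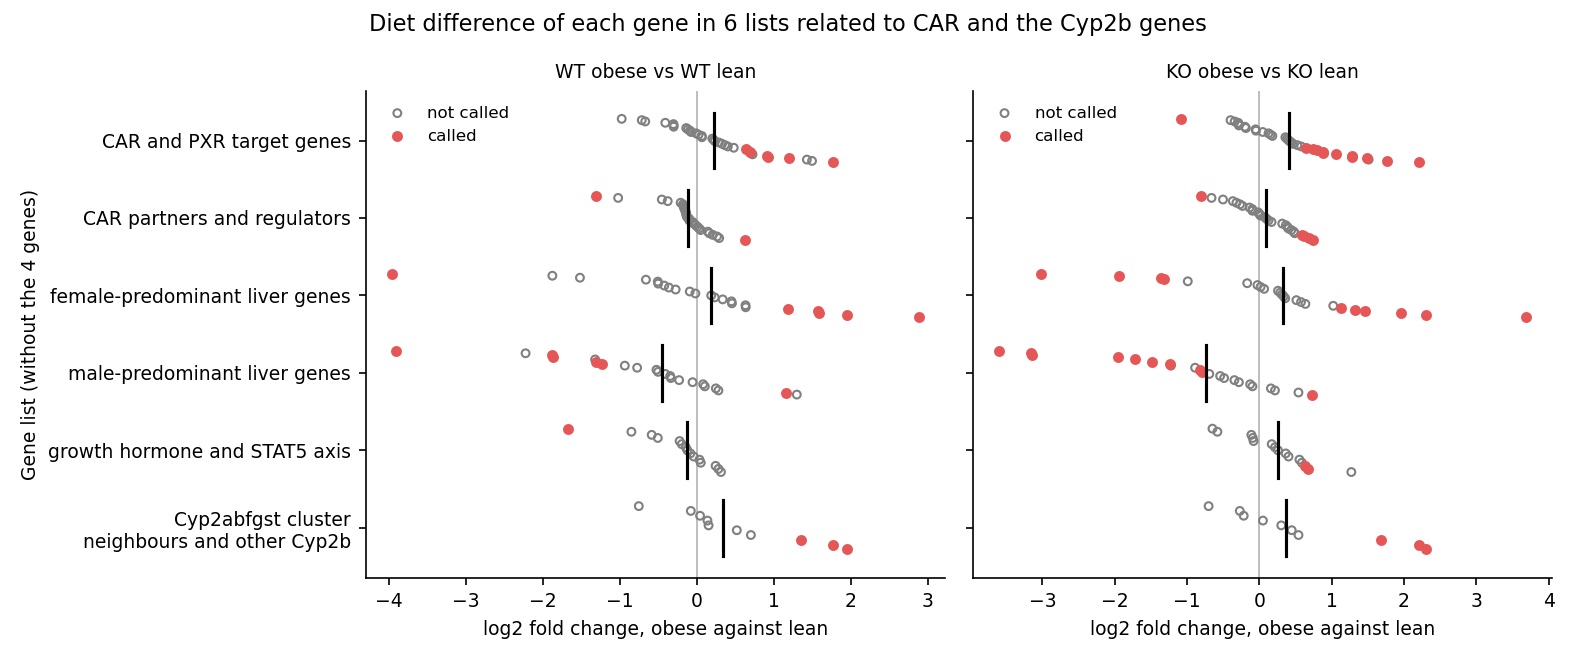
Log2 fold change of obese against lean mice (x axis) for each tested gene of the 6 lists (rows, genes sorted by value), in WT (left) and KO mice (right). Filled red points are called, open points are not, and black lines are list medians, which run from -0.46 to 0.34 in WT and from -0.74 to 0.41 in KO.

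Whether loss of ChemR23 shifted the genes was asked within each diet. In lean mice Nr1i3 alone was analysed. It had 1062, 2055 and 2794 normalized counts in WT lean and 2062, 2436 and 2886 in KO lean mice, which overlapped (log2 fold change 0.28, SE 0.19, limma adjusted p = 0.359, exact permutation p = 0.231). Tomm40l differed by 0.35 (SE 0.19, limma adjusted p = 0.250). Among all 13031 genes 3.94% were called higher, 2.7% lower and 6.65% in either direction. Of 28 CAR partners and regulators 6 were called, with Cebpa higher (0.69) and Egfr (-0.77) and Ncoa1 (-0.66) among the 5 lower. Of 33 other targets 3 were called, with Sult1d1 higher (0.78) and Abcc2 (-0.66) and Papss2 (-0.64) lower. Onecut1 (-1.58) and Onecut2 (-0.61, not called by edgeR or DESeq2) were called lower in the growth hormone list, Mup20 (0.87) and Ugt2b38 (0.80) higher in the male list and Cd36 (0.71) higher in the female list. Cluster neighbours had 0 of 9 called by limma, edgeR or DESeq2, and 0 at an unadjusted p under 0.05, which 26.8% of all genes reached. When the number in the mouse's name entered as a random block, these lists had 0 calls and all genes together had 3. Beside this, 5 of 6 Kupffer cell markers were called higher in KO lean mice (0 with the random block, smallest adjusted p 0.138), with summed levels of 2378, 3381 and 5579 normalized counts in WT lean and 5770, 6512 and 12982 in KO lean mice. Of 4 bile duct markers Krt19 alone was called lower (-0.62, also lost with the block), with a median of -0.37 over the 4. The part of these cells was not tested.

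In obese mice the genotypes overlapped for all 4 genes. Cyp2b9 had 53.8, 366 and 5303 normalized counts in WT obese and 27.1, 1413 and 4258 in KO obese mice (log2 fold change 1.24, SE 1.19, limma adjusted p = 1.0, exact permutation p = 0.375; 0.79 with edgeR). Cyp2b10 had 10.6, 50.5 and 307 against 28.9, 109 and 309 (0.95, SE 0.60). Cyp2b13 had 0, 1.37 and 239 against 0, 34.2 and 218 (1.79, SE 1.33, and 0.75 with edgeR). Nr1i3 had 1509, 4251 and 6341 against 3435, 3715 and 4855 (-0.06, SE 0.25), a narrower range in KO than in WT mice. The limma adjusted p was 1.0 for each, and exact permutation p-values were 0.191, 0.263 and 0.873 for Cyp2b10, Cyp2b13 and Nr1i3. Among all 14162 genes 0.0141% were called. None of the 6 lists had a called gene by limma, edgeR or DESeq2, and 1 female-predominant gene had an unadjusted p under 0.05, which 2.25% of all genes reached. The difference of the diet effect between genotypes (KO minus WT), which uses the same obese mice, was 1.36 (SE 1.38) for Cyp2b9, 1.02 (SE 0.90) for Cyp2b10 and -0.34 (SE 0.32) for Nr1i3, with limma adjusted p-values of 0.642, 0.582 and 0.622. With edgeR the same differences were 0.69, 0.027 and -0.39, and none passed. The genes were picked for their diet values. In WT lean mice Cyp2b9 and Cyp2b10 had means of 2.76 and 4.96 normalized counts, under the filter of 5. For Cyp2b9 and Cyp2b10 the difference therefore adds little to the comparison of obese mice. No conclusion about the diet effect is drawn from it. Of all 13924 genes 0.00718% (1 gene) were called for this difference, and 1848 genes when KO lean mouse 20R was left out.

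The effect of RvE1 was compared within obese mice. In WT mice, vehicle mice had 57.5, 389 and 5666 normalized counts of Cyp2b9 and RvE1 mice 1170, 2242 and 4489. In 6 of 7 vehicle mice the level lay below that of every RvE1 mouse, and in mouse 6R it lay above all of them. The ratio of medians was 5.77 and the ratio of means 2.25. The log2 fold change was 2.88 (SE 0.79) with an unadjusted limma p of 0.00212 and an exact permutation p of 0.00932, and it did not pass adjustment over all 13085 genes (limma adjusted p = 0.772). Without mouse 6R it was 3.59 with a limma adjusted p of 0.0250, which passed. DESeq2, which replaces outlying counts in groups of 7 or more, gave 2.47 and an adjusted p of 0.0719. With that replacement switched off it gave 1.16 and no adjusted p, and edgeR gave 1.14 with an adjusted p of 0.905.

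Cyp2b10 had 11.3, 53.6 and 328 normalized counts in WT vehicle mice and 84.7, 139 and 419 in WT RvE1 mice. Here 5 of 7 vehicle mice lay below every RvE1 mouse, the exceptions being mice 6R and 22L (log2 fold change 1.497, SE 0.56, limma adjusted p = 0.772, exact permutation p = 0.0408). Cyp2b13 had 0, 1.47 and 255 normalized counts against 5.94, 30.1 and 178, with 5 of 7 vehicle mice below every RvE1 mouse (2.73, SE 1.01, limma adjusted p = 0.772, exact permutation p = 0.0385). Its ratio of means was 1.43, and edgeR and DESeq2 gave log2 fold changes of 0.36 and 0.50 with adjusted p-values of 0.985 and 0.994. In 4 of the 7 vehicle mice Cyp2b13 rested on 0 or 1 read. The summed level of 4 adipocyte markers was 1019, 1165 and 1748 normalized counts in vehicle and 1162, 1392 and 2750 in RvE1 mice, with none called, and its part was not tested. Nr1i3 had 1610, 4543 and 6755 against 2842, 5507 and 6260 (0.12, SE 0.28, limma adjusted p = 0.988, exact permutation p = 0.740), beside 0.08 for Tomm40l. Among all genes limma called 0.0% (edgeR 1 gene, DESeq2 15), with 6.08% at an unadjusted p under 0.05. The 13 exact tests of the 4 genes were not adjusted among themselves.

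In KO mice the groups overlapped for all 4 genes. Cyp2b9 had 28.4, 1482 and 4456 normalized counts in vehicle mice and 313, 954 and 7620 in RvE1 mice (log2 fold change 1.08, SE 1.09, limma adjusted p = 0.786, exact permutation p = 0.408). It was 0.32 without mouse 23L, 1.53 without mouse 10-2L and 0.64 with edgeR. The mean was higher and the median lower with RvE1, and 2 RvE1 mice (12-2L and 23RL) had 7528 and 7620 normalized counts. Cyp2b10 had 30.3, 114 and 324 against 53.6, 103 and 334 (0.04, SE 0.46). Cyp2b13 had 0, 35.9 and 228 against 4.63, 10.8 and 269 (0.40, SE 1.29). Nr1i3 had 3602, 3903 and 5062 against 2477, 5718 and 7009 (0.33, SE 0.19, limma adjusted p = 0.624, exact permutation p = 0.140), with 4 of 7 RvE1 mice above every vehicle mouse, beside 0.18 for Tomm40l. The limma adjusted p was 0.988 for Cyp2b10 and 0.944 for Cyp2b13. Among all 14207 genes limma called 0.0% (edgeR 0, DESeq2 14), with 8.3% at an unadjusted p under 0.05.

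The difference of the RvE1 effect between genotypes (KO minus WT) was -1.80 (SE 1.44) for Cyp2b9, -1.46 (SE 0.77) for Cyp2b10, -2.33 (SE 1.75) for Cyp2b13 and 0.21 (SE 0.36) for Nr1i3. With edgeR the differences were -0.49, -1.14, -0.05064 and 0.36. None passed with either tool, at adjusted p-values of 1.0, so a response in WT mice that KO mice lack was not shown. Each of these comparisons uses obese vehicle mice that also entered the diet comparison.

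**Figure D3:**
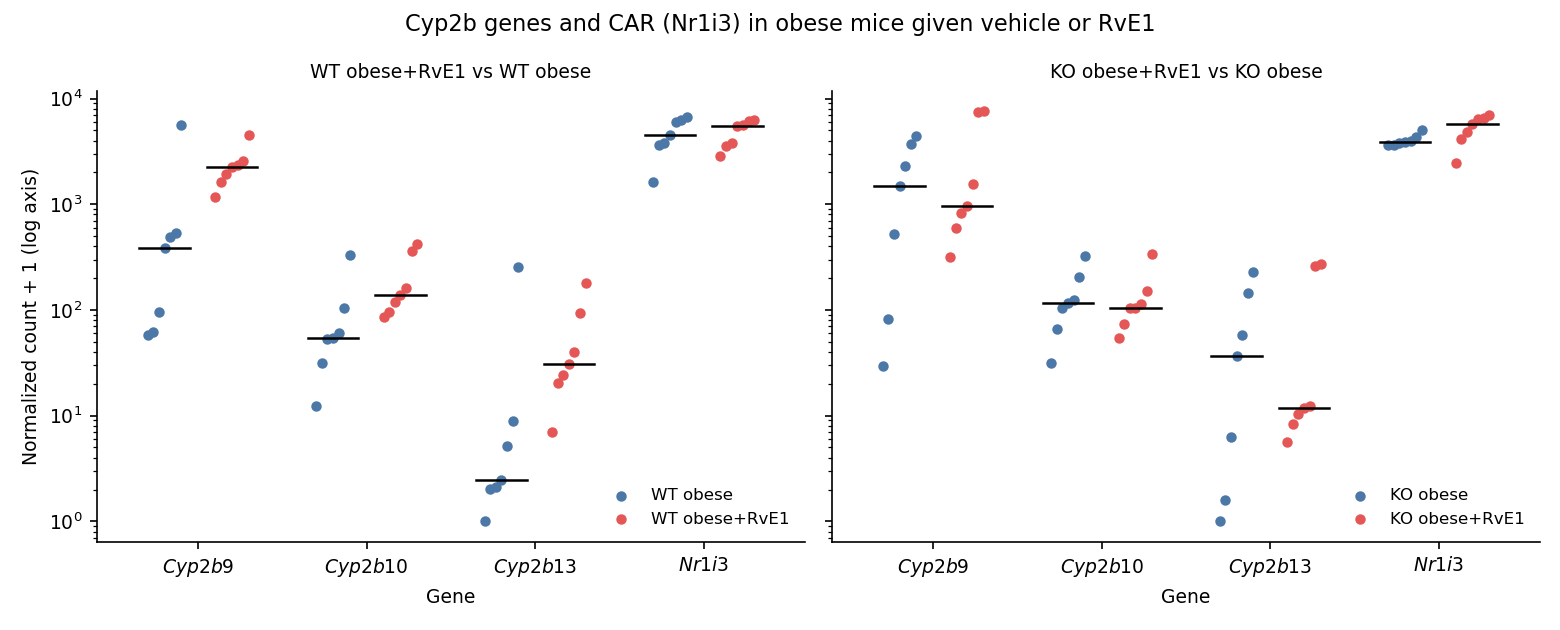
Normalized count + 1 on a log axis for each gene in obese mice given vehicle (blue) or RvE1 (red), WT on the left and KO on the right, with 1 point per mouse and a black line at the group median. In WT mice all but 1 vehicle point of Cyp2b9 lie below the RvE1 points, and in KO mice the points of both groups overlap for each gene.

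Mouse identifiers begin with a number, whose meaning the labels do not give. Among obese vehicle mice, Cyp2b9 did not overlap between numbers 6 and 27 in WT or between numbers 10 and 31 in KO mice. Each of these numbers holds 3 mice. How many of all genes separate by number was not counted, so nothing is concluded from the separations given here. WT vehicle mice carry the numbers 6, 22 and 27 and WT RvE1 mice 7 and 30, so number and treatment cannot be told apart there. Among WT vehicle mice, Cyp2b9 was 485, 528 and 5666 normalized counts in number 6, 57.5, 60.5 and 389 in number 27 and 93.8 in number 22. Among KO vehicle mice it was 2307, 3677 and 4456 in number 10 and 80.7, 520 and 1482 in number 31. Among RvE1 mice the numbers overlapped for Cyp2b9. It was 1170 to 2361 in number 7 and 1926 to 4489 in number 30 in WT mice. In KO mice it was 313 to 7528 in number 12 and 830 to 1559 in number 15. Number 23 held mice of both KO groups. Its 1 vehicle mouse had 28.4 normalized counts of Cyp2b9 and its 2 RvE1 mice 598 and 7620. Cyp2b10 overlapped between numbers 6 and 27 and between numbers 10 and 31. In vehicle mice Cyp2b13 overlapped in WT but not in KO mice (56.4 to 228 in number 10, 0.593 to 35.9 in number 31). Nr1i3 overlapped in KO but not in WT vehicle mice (6038 to 6755 in number 6, 1610 to 3772 in number 27). Among WT RvE1 mice Nr1i3 did not overlap either (5507 to 6260 in number 7, 2842 to 3832 in number 30). No lean mouse shared a number with an obese mouse in any table.

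None of the 6 lists had a gene called by limma after RvE1. Among all genes 6.08% in WT and 8.3% in KO mice had an unadjusted p under 0.05. In WT mice 5 of 21 female-predominant genes had an unadjusted p under 0.05, all higher, and 5 of 21 male-predominant genes, all lower. The medians were 0.45 and -0.61, against 0.0047 over all genes. Of 34 CAR and PXR targets 4 reached it, all higher (median 0.035), and of 14 growth hormone genes 3, all lower (-0.13). CAR partners (28 genes, median -0.011) and cluster neighbours (9 genes, 0.0037) had none. In KO mice the medians were -0.17 for the female list, -0.54 for the male list, -0.20 for the targets, -0.17 for the partners, -0.46 for the growth hormone list and -0.010 for the neighbours, against -0.0082 over all genes. There 6 of 24, 2 of 22, 5 of 34, 7 of 28, 5 of 15 and 0 of 10 genes had an unadjusted p under 0.05, in the same order of lists. Of these, 3 female genes and 1 partner were higher and all others lower. edgeR called none in either genotype. DESeq2 called Moxd1 and Selenbp2 in WT mice and Cyp4a14, Cish and Onecut1 in KO mice.

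How the 4 genes varied together was followed within obese mice, after group means were subtracted, in 14 WT and 14 KO mice. Cyp2b9 and Cyp2b13 moved together in both, with Pearson r = 0.871 (Spearman rho 0.780) in WT and 0.967 (0.930) in KO. After BH adjustment over 12 relations the permutation p-values were 0.00096 and 0.0179 in WT, and 0.00012 for both measures in KO, where the unadjusted p of 1e-05 is the smallest these permutations can give. The permutations took no account of the number in the mouse names. Between the numbers with 3 vehicle mice each, Cyp2b9 did not overlap in either genotype and Cyp2b13 did not in KO mice. Without the 2 mice farthest from the median of Cyp2b9, r was 0.706 in WT and 0.962 in KO. For Cyp2b10 no such relation was found: its r with Cyp2b9 was 0.182 in WT and -0.111 in KO (permutation p adjusted over the 12 relations 0.739 for both).

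No relation of Nr1i3 to a Cyp2b gene passed the threshold set for relations, a BH-adjusted p under 0.05. The r of Cyp2b10 and Nr1i3 was 0.216 in WT (rho -0.103, r -0.402 without mice 22L and 27RL) and -0.563 in KO (rho -0.516, r -0.400 without mice 31N and 23-2L), with permutation p-values of 0.739 and 0.0788 after adjustment. The r of Nr1i3 with Cyp2b9 was 0.440 in WT and 0.181 in KO, and with Cyp2b13 0.138 and 0.110. Reads shared between Cyp2b9 and Cyp2b13 would link their counts, and this part was not tested. The level of Cyp2b13 was 0 to 4.50% of that of Cyp2b9 in WT obese mice and 0.508% to 3.97% in WT obese+RvE1 mice. It was 0 to 5.12% in KO obese mice and 0.694% to 3.57% in KO obese+RvE1 mice. The shares of 0 came from mice 27RL and 23L, with 43 and 16 reads of Cyp2b9. The level of Cyp2b10 ran from 1.82% to 350% of that of Cyp2b9 in WT obese mice and from 2.34% to 712% in KO obese mice.

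**Figure D4:**
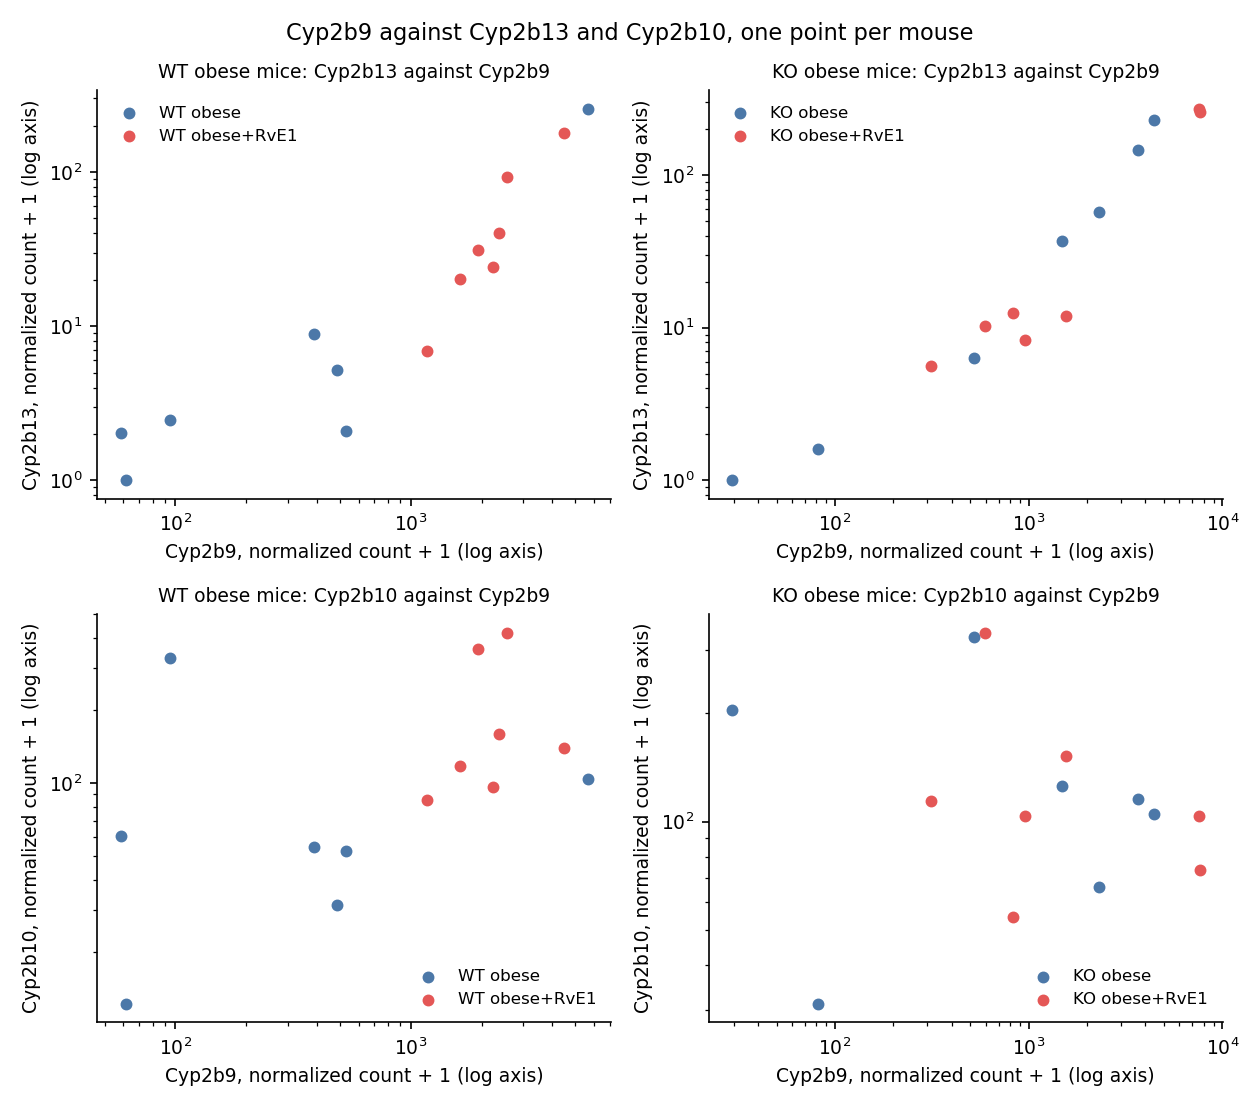
Normalized count + 1 of Cyp2b13 (top) and Cyp2b10 (bottom) against Cyp2b9, both axes logarithmic, in WT (left) and KO (right) obese mice, with 1 point per mouse, vehicle in blue and RvE1 in red. Points of Cyp2b13 climb with Cyp2b9 in both genotypes (r = 0.871 and 0.967 within groups), and those of Cyp2b10 show no clear slope (0.182 and -0.111).

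Among 13059 genes past the filter in both sets of obese mice, the genes most like Cyp2b9 were ranked by the lower of the r in WT and in KO mice (14 mice each). As a description, the leading genes included Cyp2c39 (lower r 0.901), Cyp2b13 (0.871), Entpd5 (0.868), Slc22a27 (0.864), Cyp2a22 (0.860), Abhd4 (0.824), Vldlr (0.823), Cyp2c38 (0.819) and Idh2 (0.798). Cyp2c39, Cyp2c38 and Cyp2a22 are other cytochrome P450 genes, Vldlr encodes a lipoprotein receptor and Idh2 a mitochondrial dehydrogenase. Cyp2b10 ranked 5915th and Nr1i3 3000th by the same measure. The genes most like Nr1i3 were Tomm40l (0.952), the gene it overlaps, then Dennd6b (0.858), 1810019D21Rik (0.828), Lgals4 (0.818) and 4833418N02Rik (0.817).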

How the data were processed

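Livers of 42 mice were sequenced. According to the submitters' processing notes and the methods, the authors aligned read pairs to mm10 with Bowtie2, counted them per gene with featureCounts and divided them by DESeq2 size factors, separately for each of 6 tables of 14 libraries. For versions, annotation and strand, nothing is given in the sources used here. The deposited signal values are therefore normalized counts, to be compared inside 1 table. Columns with log2 fold changes and p-values of the authors' own comparisons stand beside them and were not used. Whole reads were recovered from the deposited values (100.0% whole within 0.1 reads, although in 1 column 1 read is worth almost exactly 1), and 0 of 587076 values of libraries found in 2 tables differed. Groups were taken from the labels.

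Each comparison was tested with limma (version 3.58.1 in R 4.3.3, moderated with a mean-variance trend, two-sided) on log2(normalized count + 1), for genes with a mean of at least 5 over the 14 libraries, with BH adjustment over all genes. This scale understates differences of low genes. The thresholds for a call were an adjusted p of 0.1 and a 1.5-fold difference. Differences between genotypes were fitted across 2 tables as differences of within-table contrasts, and called at an adjusted p under 0.1. All 4 genes passed the filter wherever they were analysed, but Cyp2b9 and Cyp2b13, and in WT mice Cyp2b10, did so through obese mice alone in the diet comparisons. Single genes were also tested by exact permutation of log2 values, and pairs of genes by 100000 permutations within groups. For pairs the threshold was a BH-adjusted p of 0.05. The meaning of replicates as separate mice comes from the labels, and replicate numbers are accession order. Alternatives were pseudocounts of 0.5 and 4, no filter, TMM scaling, equal read totals, edgeR (4.0.16) and DESeq2 (1.42.0) on recovered reads, the identifier number as a random block, other thresholds and each mouse left out. The run of DESeq2 without outlier replacement was added after seeing the data. The limma procedure was tested on simulated data. Gene positions and transcripts came from GENCODE M21 on GRCm38, and promoters from RefSeq on GRCm38.p6. The 6 lists hold 136 genes, 6 of them in more than 1 list.

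The 4 genes and the lists were chosen with earlier results of these data known. The genes named are the 4, the markers, Cmklr1, the 3 called higher and 3 called lower with the largest difference in each list and comparison, and those most like Cyp2b9 and Nr1i3, and some of the genes this rule names are not reported here. Tomm40l, Cyp3a11, Rxra, Nr1i2 and the genes DESeq2 called were added after their values were seen.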

Additional observations from a re-analysis of the deposited data

Results flagged for a closer look

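In 22 groups of 7 mice, each gene was searched for a mouse whose gap to its neighbour took an unusually large share of the group's range (Dixon's 95% critical value). For normally distributed values chance marks about 5% of groups in this way. Normalized counts of the Cyp2b genes were skewed to high values within groups, so that rate does not hold on their scale. On the scale of normalized counts 5 of 22 were marked, and on the log2 scale 1. Nothing is read from the number marked. Mouse 6R was marked for both Cyp2b9 and Cyp2b13 among WT obese mice, with 4836 normalized counts of Cyp2b9 (next highest 450) in the comparison with lean mice and 255 of Cyp2b13 (next highest 7.85) in the comparison with RvE1. The latter was also marked on the log2 scale. Mouse 22L was marked for Cyp2b10 in WT obese mice, with 280 normalized counts against 88.2 in the next. Mouse 30RL was marked for Cyp2b9 in WT obese+RvE1 mice, with 4489 against 2563. Mouse 23-2L was marked for Cyp2b10 in KO obese+RvE1 mice, with 334 against 152.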

How the results depend on the processing

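No paired analysis was possible because the groups compared share fewer than 2 numbers in the mouse names: number 23, in KO obese and KO obese+RvE1 mice, is the 1 number found in 2 groups of a comparison. The number was tried as a random block instead. In the diet comparisons the log2 fold changes of the 4 genes kept their sign under all 161 settings tried. They moved by more than the spread between mice in 6, for Cyp2b9 in WT mice (8.22 with edgeR and 8.32 with DESeq2, with or without outlier replacement, against 6.28) and for Cyp2b13 in KO mice (8.04 and 8.05, against 4.06). Of 570 settings for the tested comparisons, 2 changed a call and 15 changed a sign, the latter all for values that were not called. The calls were those of Cyp2b9 after RvE1 in WT mice, with DESeq2 (2.47, adjusted p = 0.0719) and without mouse 6R, where leaving out 1 mouse gave 2.49 to 3.59 and the adjusted p over all settings ran from 0.0250 to 1.0. For Cyp2b10 after RvE1 in KO mice edgeR gave -0.046 and DESeq2 -0.054, with and without outlier replacement, against 0.04, and leaving out 1 mouse gave -0.27 to 0.30. For Cyp2b13 there, leaving out 1 mouse gave -0.30 to 1.01. For Nr1i3 leaving out 1 mouse gave -0.29 to 0.054 between obese genotypes and -0.11 to 0.24 after RvE1 in WT mice. The causes were not tested.

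Among correlations, r of Cyp2b9 and Cyp2b13 in WT mice was 0.706 without the 2 farthest mice. In WT mice Cyp2b10 and Nr1i3 had rho -0.103, r -0.402 without the 2 farthest mice and 0.516 in vehicle mice, and Cyp2b13 and Nr1i3 0.461 in vehicle mice. In KO mice Cyp2b9 and Cyp2b10 had 0.00303 at equal totals, Cyp2b9 and Nr1i3 0.453 at equal totals and -0.0903 in vehicle mice, Cyp2b13 and Nr1i3 0.424 and -0.142, and Cyp2b10 and Cyp2b13 -0.449 without the 2 farthest mice.

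Genes called among all tested depended more on the setting. When the number in the mouse's name was a random block they were 242 (WT) and 750 (KO) between diets, against 532 and 1476, and 3 against 866 between lean genotypes. Without a fold threshold they were 878, 3422 and 2123. Leaving out 1 mouse gave 374 to 731, 1086 to 2006 and 388 to 1480, and for the difference of the diet effect between genotypes 0 to 1848 (without mouse 20R) against 1. Between obese genotypes they were 0 to 3 against 2, and after RvE1 up to 15 (WT) and 14 (KO) with DESeq2 against 0. In the lists, WT mice between diets had 4 to 11 targets against 6 and 0 to 2 partners against 2, and KO mice 2 to 10 partners against 5, 6 to 12 female genes against 10, 4 to 12 male genes against 10 and 1 to 5 growth hormone genes against 2. Between lean genotypes targets were 0 to 5 against 3, partners 0 to 10 against 6, female genes 0 to 3 against 1, male genes 0 to 4 against 3 and growth hormone genes 0 to 3 against 2. With windows of 100 bases the shares found in another gene fell to 1.18% for Cyp2b9, 0% for Cyp2b10, 9.29% for Cyp2b13 and 53.1% for Nr1i3. Depth limits Cyp2b13 and the lean Cyp2b genes, which rest on few reads.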
